A study of Mus musculus with 6 samples.

Results

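Macrophages are the resident phagocytes of the dental pulp and of the tissue around the proximal incisor. Their survival depends on CSF1R, the receptor for the growth factors CSF1 and IL34. They take up dying cells and mannose-bearing ligands and make most of a tissue's C1q, the molecule that opens the classical complement pathway. The 10 genes described here, out of 19060 in the deposited counts, are commonly used to follow these cells: Csf1r, Cd68, C1qa, C1qb, C1qc, Lyz2, Ptprc, Adgre1, Cx3cr1 and Mrc1. They were taken by gene name. All 10 had counts in all 6 samples and passed edgeR's filter on low counts, as did 15826 genes in total.

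RNA came from the proximal end of mouse incisors, from 3 control samples (called wild type in the labels) and 3 mutant samples (Gli1CreER;Fgfr1fl/fl, written Gli1-Cre;Fgfr1fl/fl there). The paper names Fgfr1fl/fl as the control in other experiments and writes only control for this one. Whether these controls carried floxed Fgfr1 alleles is therefore not settled. Tamoxifen was given to mice of both genotypes at 1 month of age and incisors were taken 1 week later. Both groups had thus received tamoxifen, and Cre is named only for the mutants. Cre was driven by Gli1, a gene of mesenchymal stem cells, so macrophages were not the cells targeted. Neither source says how many animals went into a sample, and p-values measure the spread between these samples. The question for these genes was whether macrophage transcripts differed in the incisor after Fgfr1 was deleted in Gli1+ cells.

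Total counts were 31060222 to 32712448 in the control and 5276557 to 11819576 in the mutants. Values are given as CPM (counts scaled to library size after upper-quartile scaling, at a common size of 1e+06), and 3 counts, the limit that a count of 0 allows, equalled 0.0825 to 0.0874 CPM in the control and 0.256 to 0.655 CPM in the mutants (counting error only). Fgfr1 had a log2 fold change of -1.37 (adjusted p = 0.0881, edgeR) and was lower in all mutants. Ameloblast and odontoblast genes were abundant in every library, with Amelx, which encodes the main enamel matrix protein, at 59345 ± 8024 CPM in controls and 25371 ± 14729 CPM in mutants (SD, n = 3 each). Transcripts of skeletal muscle were uneven. The 8 muscle genes listed summed to 8.77, 2692 and 27.4 CPM in controls 1, 2 and 3 and to 6085, 157 and 1012 CPM in mutants 1, 2 and 3.

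The members lie on 8 chromosomes of GRCm38 (GENCODE M21). The 3 C1q chains sit side by side on the minus strand of chromosome 4, with C1qb from 136880129 to 136886187, C1qc from 136889804 to 136893065 and C1qa from 136895917 to 136898803. Cd68 is on chromosome 11 (69664213 to 69666153), Lyz2 on chromosome 10 (117277331 to 117282321) and Ptprc on chromosome 1 (138062861 to 138175708). Adgre1 is on chromosome 17 (57358691 to 57483527), Cx3cr1 on chromosome 9 (119901616 to 120069879) and Mrc1 on chromosome 2 (14229392 to 14332057). The annotated span of Cx3cr1 overlaps 5 other genes in the table, and that of Csf1r overlaps Hmgxb3 by 873 bases on the opposite strand. These are overlaps of whole gene spans, introns included, and of the genes overlapping Cx3cr1, Gorasp1, Csrnp1 and Xirp1 lie on its strand. The strand setting of the counting is not given in the sources used here. Whether reads were shared in these overlaps was not tested.

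The promoter sequences of C1qb, C1qc and Cd68 are shown because these members followed the average of the group most closely over the 6 samples (values further on). Each is the 250 bases before the RefSeq start on GRCm38.p6, 5′ to 3′ on the minus strand: chr4:136886201-136886450 for C1qb, chr4:136892915-136893164 for C1qc and chr11:69666171-69666420 for Cd68. Capitals mark GAGGAA or its reverse complement TTCCTC, the purine-rich core bound by PU.1, the transcription factor of the myeloid lineage that Spi1 encodes.
C1qb: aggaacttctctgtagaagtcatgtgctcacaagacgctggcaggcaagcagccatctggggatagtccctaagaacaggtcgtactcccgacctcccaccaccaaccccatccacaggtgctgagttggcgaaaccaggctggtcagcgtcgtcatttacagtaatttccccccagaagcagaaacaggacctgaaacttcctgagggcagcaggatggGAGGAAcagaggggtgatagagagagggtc
C1qc: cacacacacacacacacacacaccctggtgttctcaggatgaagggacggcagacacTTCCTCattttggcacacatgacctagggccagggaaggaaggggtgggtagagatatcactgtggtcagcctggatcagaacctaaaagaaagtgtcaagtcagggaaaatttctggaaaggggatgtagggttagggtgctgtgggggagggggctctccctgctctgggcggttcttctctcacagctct
Cd68: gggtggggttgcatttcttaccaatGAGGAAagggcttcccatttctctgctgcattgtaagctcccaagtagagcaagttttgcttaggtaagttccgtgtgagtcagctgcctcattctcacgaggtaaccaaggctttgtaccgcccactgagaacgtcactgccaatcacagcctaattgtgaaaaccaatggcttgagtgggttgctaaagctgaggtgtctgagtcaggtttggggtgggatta
The match began at position -30 in C1qb and at -225 in Cd68, and in C1qc its reverse complement began at -193, counted from the start. Windows were found for 7 members, 8 windows in all since Ptprc had 2, and 5 of the 8 held at least 1 match. Of 32851 windows of the same length over all genes, 23.3% held it. Csf1r, C1qa and Adgre1 had no window.

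The macrophage genes were measured in every sample, and none of their differences between the genotypes passed a test. With edgeR (quasi-likelihood F test, two-sided, Benjamini-Hochberg adjustment over 15826 genes) and a threshold of 0.05 on the adjusted p, 0 of the 10 members were called, against 6.79% of all genes tested (3.72% higher and 3.06% lower in the mutants). At an unadjusted p under 0.05 the number was also 0, against 20.1% of all genes tested, and DESeq2 and limma-voom gave 0 at either threshold as well. The control and mutant values overlapped for all 10, whereas the groups did not overlap for 30.4% of all genes tested (14.1% with the mutants higher, 16.3% with them lower). The log2 fold changes ran from -0.81 to 0.64, 6 above and 4 below 0, with a median of 0.33 against -0.04 over all genes tested. The 95% intervals of the ratio, mutant over control, had lower bounds from 0.266 to 0.678 and upper bounds from 1.22 to 6.77. Summed over the members, the level was 567, 588 and 196 CPM in controls 1, 2 and 3 and 585, 442 and 494 CPM in mutants 1, 2 and 3. In bulk tissue, fewer macrophages and less RNA per macrophage cannot be told apart.

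**Figure D1:**
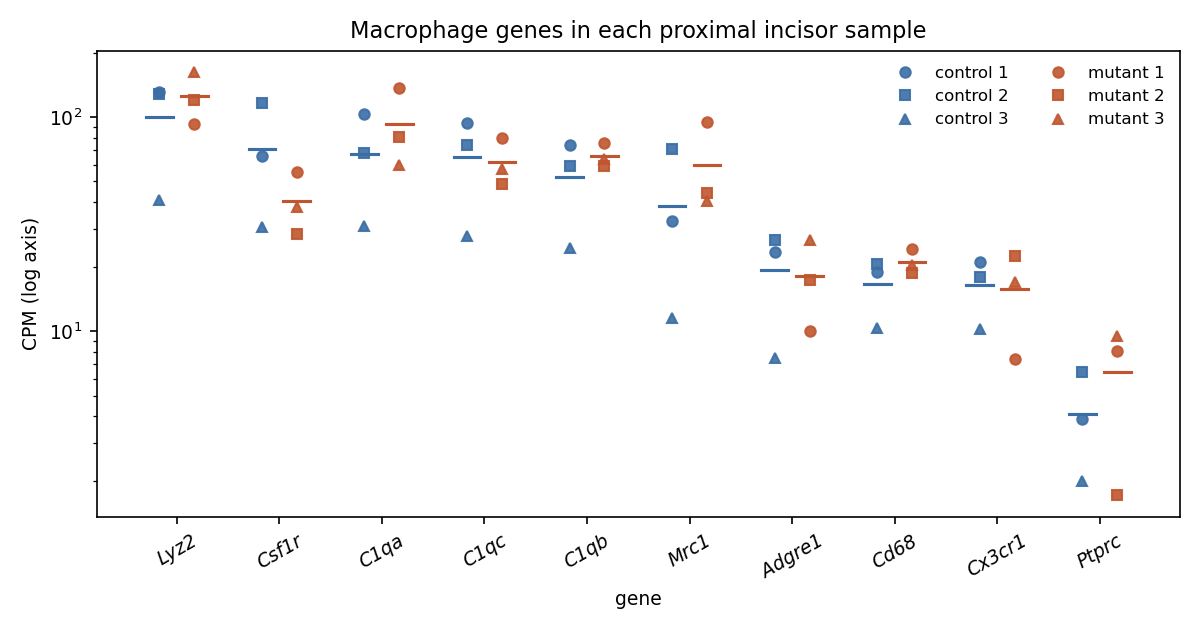
CPM (log axis) of each of the 10 macrophage genes in the 3 control (blue) and 3 mutant (orange) samples, with the symbol giving the sample number and the bar the group mean. The groups overlap for every gene, and control sample 3 (blue triangle) is the lowest control each time.

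The receptor that macrophages need to survive had the lowest fold change. Csf1r (chromosome 18, 61100598 to 61132149) had 66.0, 117 and 30.5 CPM in controls 1, 2 and 3 and 55.2, 28.5 and 38.1 CPM in mutants 1, 2 and 3. Control sample 3 lay among the mutants and controls 1 and 2 lay above them. The log2 fold change was -0.81 (standard error 0.48, adjusted p = 0.405, edgeR), with a 95% interval of the ratio from 0.266 to 1.22. Without control sample 3 it was -1.17, with an unadjusted p of 0.0202 (adjusted p = 0.268, edgeR), and without control sample 2 it was -0.25. With GC content and transcript length regressed out it was -0.22.

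The C1q chains, which assemble into the C1q molecule, showed no difference between the genotypes that passed a test. C1qa had 104, 67.6 and 30.9 CPM in controls 1, 2 and 3 and 137, 81.0 and 59.6 CPM in mutants 1, 2 and 3. C1qb had 73.7, 59.3 and 24.4 CPM in the controls and 75.5, 59.1 and 63.6 CPM in the mutants in the same order. C1qc had 93.6, 73.7 and 27.9 CPM in the controls and 79.4, 48.7 and 56.9 CPM in the mutants. For all 3 chains the values of the mutants lay above control sample 3 and around or below control sample 1, apart from mutant sample 1, which had the highest C1qa and C1qb of all 6. The log2 fold changes were 0.46 ± 0.47 for C1qa, 0.33 ± 0.39 for C1qb and -0.08 ± 0.43 for C1qc (± standard error), with adjusted p of 0.674, 0.720 and 0.952 from edgeR. The 95% intervals of the ratio ran from 0.652 to 2.88, from 0.678 to 2.33 and from 0.478 to 1.87. Per kilobase of transcript, C1qa held 40.6, 35.9 and 39.5% of the summed C1q level in controls 1, 2 and 3 and 49.3, 45.1 and 35.1% in mutants 1, 2 and 3.

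**Figure D2:**
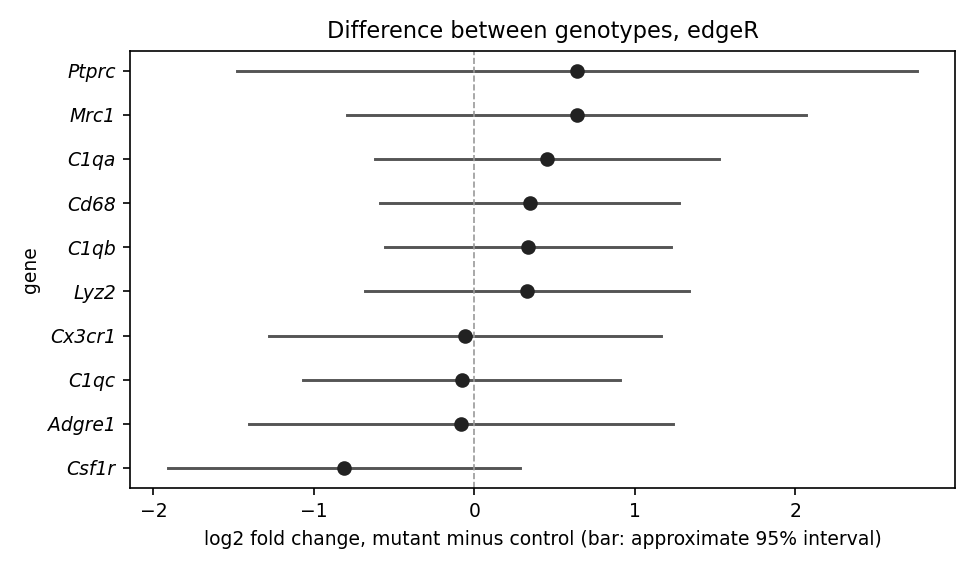
Log2 fold change of each member, mutant minus control, from edgeR (point) with its approximate 95% interval (bar), ordered by size. Every interval crosses 0, from -0.81 for Csf1r at the bottom to 0.64 for Ptprc at the top.

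The genes of the lysosome and of secreted defence showed no difference that passed a test either. Cd68, a glycoprotein of the lysosomal membrane, had 18.8, 20.5 and 10.3 CPM in controls 1, 2 and 3 and 24.2, 18.6 and 20.3 CPM in mutants 1, 2 and 3. Its mutants differed by a factor of 1.30 and its controls by a factor of 1.99, the narrowest range of the 10 among the controls. Lyz2, lysozyme, had 130, 128 and 40.8 CPM in the controls and 92.8, 120 and 162 CPM in the mutants. Its near copy Lyz1 took at most 0.883% of the joint counts of the pair in any sample, and how reads shared by the pair were divided is not given in the sources used here. The log2 fold changes were 0.34 ± 0.41 for Cd68 and 0.33 ± 0.44 for Lyz2 (adjusted p = 0.723 and 0.762, edgeR). The 95% intervals of the ratio ran from 0.665 to 2.42 and from 0.623 to 2.53.

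The other members encode receptors and antigens of the cell surface. Adgre1, which encodes the macrophage antigen F4/80, had 23.5, 26.6 and 7.51 CPM in controls 1, 2 and 3 and 10.04, 17.4 and 26.6 CPM in mutants 1, 2 and 3. Cx3cr1, the receptor for fractalkine, had 21.004, 17.9 and 10.2 CPM in the controls and 7.42, 22.5 and 17.03 CPM in the mutants. For both genes mutant sample 1, the library with the fewest counts, held the lowest mutant value, from 46 counts for Adgre1 and 34 for Cx3cr1. Mrc1, the mannose receptor of tissue-resident macrophages, had 32.5, 71.2 and 11.5 CPM in the controls and 95.2, 44.1 and 40.4 CPM in the mutants. Control sample 3 was the lowest Mrc1 value and mutant sample 1 the highest, and the 3 controls spanned a factor of 6.17, the widest of the members. Ptprc, which encodes the leukocyte antigen CD45, had 3.87, 6.46 and 1.99 CPM in the controls and 8.08, 1.71 and 9.47 CPM in the mutants, so that all its controls lay between mutant sample 2 and the other two mutants. The log2 fold changes were -0.09 ± 0.58 for Adgre1, -0.06 ± 0.53 for Cx3cr1, 0.64 ± 0.62 for Mrc1 and 0.64 ± 0.92 for Ptprc, with adjusted p of 0.962, 0.971, 0.656 and 0.783 from edgeR. Without control sample 2, Mrc1 had a log2 fold change of 1.44, with an unadjusted p of 0.0446 (adjusted p = 0.319, edgeR).

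Levels were compared between genes as CPM per kilobase of the longest protein-coding transcript. In the controls Lyz2 (75.9 ± 38.9, SD, n = 3) and the C1q chains (C1qa 64.8 ± 35.0, C1qc 54.1 ± 28.01, C1qb 48.2 ± 23.3) were highest. Csf1r (15.1 ± 9.21), Cd68 (13.5 ± 4.46), Mrc1 (7.15 ± 5.63), Adgre1 (5.93 ± 3.16), Cx3cr1 (3.64 ± 1.23) and Ptprc (0.810 ± 0.442) followed. Within single controls, C1qa stood above C1qc, C1qc above C1qb and C1qb above Csf1r in 3 of 3. The order of Lyz2 and C1qa held in 2 of 3, and those of Csf1r and Cd68 and of Mrc1 and Adgre1 in 1 of 3, so these neighbours did not differ beyond their spread. In the mutants the order of the means was Lyz2 (95.1 ± 26.7), C1qa (89.0 ± 38.5), C1qb (60.7 ± 7.80), C1qc (51.3 ± 13.2), Cd68 (17.1 ± 2.35), Mrc1 (11.1 ± 5.69), Csf1r (8.64 ± 2.88), Adgre1 (5.57 ± 2.56), Cx3cr1 (3.49 ± 1.70) and Ptprc (1.27 ± 0.816).

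Control sample 3 was the lowest control sample for 10 of 10 members, whereas it was the lowest of the 3 for 28.1% of all genes tested. Control samples 1 and 2 exceeded it by factors of 1.83 to 3.36 and of 1.75 to 6.17. As log2(CPM + 1), the median member was 1.47 higher in control sample 1 and 1.34 higher in control sample 2 than in control sample 3, against 0.08 and -0.04 for all genes tested. Of the 30 values of the mutants, 27 lay above control sample 3 and 18 lay within the range of the controls. The 29 other macrophage genes listed had the same control sample lowest for 23 of the 27 tested. In this sample the 8 epithelial genes listed summed to 120704 CPM, against 85262 and 96957 CPM in controls 1 and 2, and their part in the macrophage values was not tested. Without control sample 3, the median log2 fold change of the members was -0.03.

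**Figure D3:**
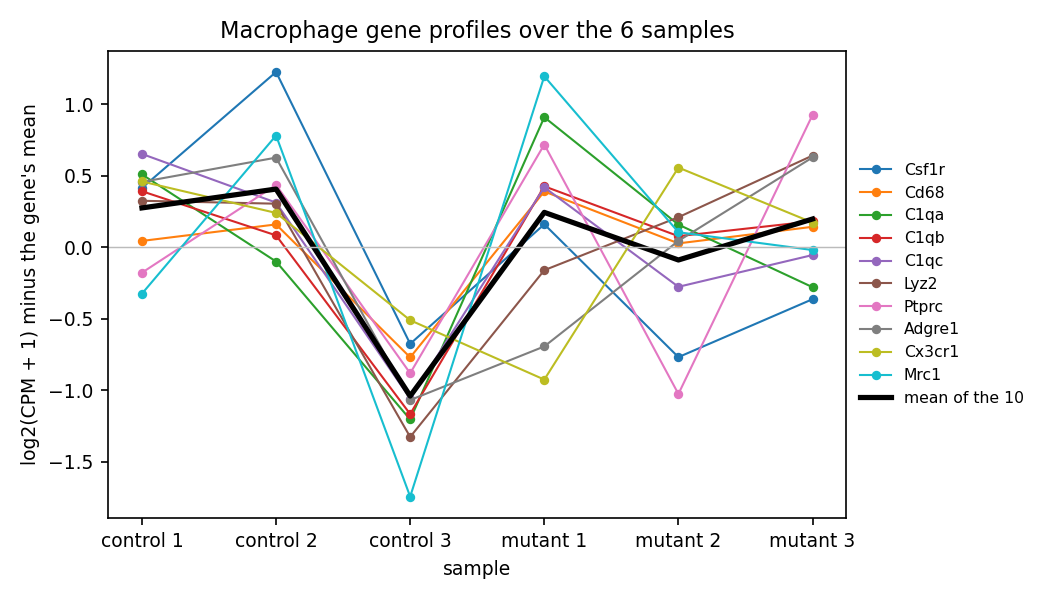
log2(CPM + 1) of each member minus its mean over the 6 samples, by sample, with 1 thin line for each gene and the mean of the 10 in black (lines only join the values of a gene). The mean is at -1.04 in control sample 3 and between -0.09 and 0.41 in the other samples.

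The member profiles were compared with the mean of the 10 by the root mean square distance of centred log2(CPM + 1) over the 6 samples. C1qb (0.181), Cd68 (0.194) and C1qc (0.216) were nearest and Cx3cr1 (0.596), Mrc1 (0.575), Ptprc (0.557) and Csf1r (0.518) farthest, and each member is itself part of that mean. Among 9620 genes outside the lists with a mean of at least 10 CPM, whose median distance was 0.699, the nearest were Mapt (0.167), Pld4 (0.176), Ghr (0.183), Kcnk2 (0.205) and Chka (0.213). Pld4, a phospholipase of phagocytes, had 14.3, 13.5 and 4.97 CPM in controls 1, 2 and 3 and 11.3, 12.3 and 10.4 CPM in mutants 1, 2 and 3.

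Csf1r was also set against the C1q chains within each library, a ratio that does not depend on the scaling and that was chosen after its values were seen. Csf1r CPM were 24.4, 58.1 and 36.7% of the summed C1q CPM in controls 1, 2 and 3 and 18.9, 15.1 and 21.2% in mutants 1, 2 and 3. The mutants lay below all controls. The means were 39.7 ± 17.1% and 18.4 ± 3.06% (SD, n = 3 each; exact permutation test, two-sided p = 0.1, the smallest that 3 against 3 allows). Since the ratio was chosen on these same values, this p is given as a description only. The log2 fold change of Csf1r minus the mean of the C1q chains was -1.05, and the difference was -0.56 without control sample 2 and -0.60 without the libraries richest in muscle transcripts, control sample 2 and mutant sample 1. Csf1r has a transcript of 4701 bases and the C1q chains have transcripts of 1040 to 1203 bases. With GC content and transcript length regressed out, the difference was -0.10.

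**Figure D4:**
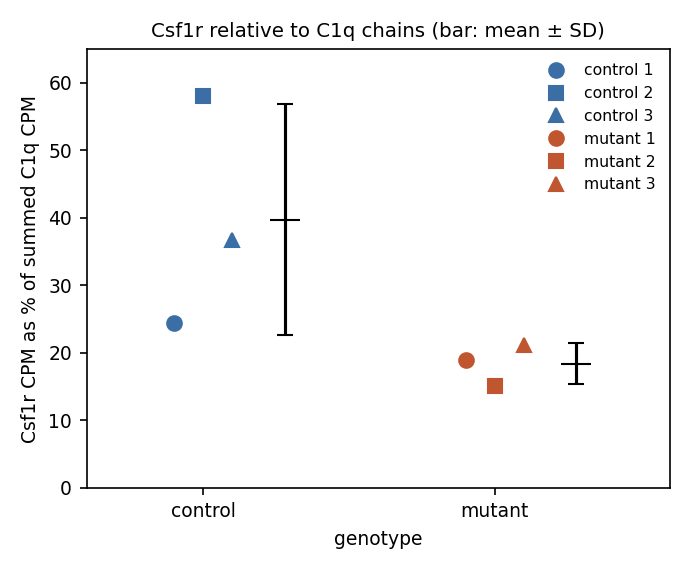
Csf1r CPM as a percentage of the summed CPM of C1qa, C1qb and C1qc in each sample, with the mean and SD beside each genotype. The 3 mutants lie between 15.1 and 21.2% and the 3 controls between 24.4 and 58.1%.

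Both ligands of CSF1R had lower means in the mutants. Csf1, the main ligand of CSF1R, had 26.1, 40.1 and 15.6 CPM in controls 1, 2 and 3 and 0.655, 22.6 and 9.78 CPM in mutants 1, 2 and 3, the first of these from 3 counts. The groups overlapped, and its log2 fold change was -1.28 ± 0.91 (adjusted p = 0.509, edgeR). Il34, the second ligand, had 32, 45 and 20 counts in controls 1, 2 and 3 and 0 counts in every mutant sample. Against a limit of 3 counts over the 3 mutant libraries, which allows for counting error only, its mean was at least 8.0-fold lower in the mutants. The spread between mutant libraries is not part of this limit. Itgam had 0, 106 and 70 counts and C3ar1 had 41, 88 and 0 counts in mutants 1, 2 and 3. Il34 passed the filter on low counts through the controls alone, so its edgeR value (adjusted p = 0.0464) is given as a description. It was under 0.05 in 3 of the 13 alternatives that tested the gene (adjusted p from 0.0431 to 0.362) and not without the filter. Cx3cl1, which encodes fractalkine, had 15.2 ± 3.14 and 15.2 ± 7.19 CPM (SD, n = 3 each). Of the 5 ligands and partners listed, 1 (Il34) was under the threshold with lower and 0 with higher values in edgeR's test, with a median log2 fold change of -0.57. Cd47, the signal that keeps phagocytes from engulfing a cell, had a log2 fold change of 0.55 and its receptor Sirpa one of -0.57 (adjusted p = 0.285 and 0.468, edgeR).

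Among 29 other macrophage genes, 27 were tested. At an adjusted p under 0.05, 1 rose and 0 fell in edgeR's test, against 3.72 and 3.06% of all genes tested. Of the 27, 19 had higher and 8 lower values, against 7622 higher and 8204 lower of all 15826 genes tested. The median log2 fold change was 0.56 in edgeR's fit, 0.08 with GC content and transcript length regressed out and 0.04 with limma-voom. Gpr34, a lysophospholipid receptor of resident macrophages and microglia, rose from 1.98, 0.907 and 0.809 CPM in controls 1, 2 and 3 to 14.8, 8.20 and 12.7 CPM in mutants 1, 2 and 3. All mutants lay above all controls, and the log2 fold change was 3.27 ± 0.79 (adjusted p = 0.0483, edgeR), with adjusted p from 1.43e-04 to 0.272 over 17 alternatives, of which DESeq2 and limma-voom made the call. Ms4a7, a membrane protein of macrophages, had 9.82, 8.16 and 3.87 CPM in the controls and 13.97, 26.7 and 27.5 CPM in the mutants (log2 fold change 1.64 ± 0.53, adjusted p = 0.121, edgeR). At an unadjusted p under 0.05, 4 of the 27 had higher and 0 lower values, against 11 and 9.13% of all genes tested. The other two, Fcgr3, an Fc receptor, and Ctss, a lysosomal protease, were named after their values were seen and had adjusted p of 0.167 and 0.240 in edgeR's test. Among those with lower values was Siglec1, the antigen CD169, at -0.88 (adjusted p = 0.608, edgeR). Spi1 had 10.3, 9.45 and 3.29 CPM in the controls and 6.11, 7.60 and 6.25 CPM in the mutants (adjusted p = 0.920, edgeR).

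Macrophage states, complement and antigen presentation gave no further calls in edgeR's test. Of the genes of resident and scavenging macrophages, 0 of 12 tested were called in either direction, with a median log2 fold change of 0.04. Pf4 was at 1.13 and Cd209f at 0.98, while Lyve1 was at -0.88 and Stab1 at -0.60, with adjusted p from 0.348 to 0.645 in edgeR's test. Of 17 inflammatory genes, 12 were in the counts and only 5 could be tested (0 called, median 0.84 over these 5). Of the untested genes, Ccl2, Cxcl10, Nlrp3 and Cd80 had 3 to 28 counts in each control and 0 counts in every mutant sample. Their controls reached at most 0.770 CPM, and by counting error alone 0 counts allowed 0.256 to 0.655 CPM in the mutants. Nos2 had 11, 24 and 7 counts in controls 1, 2 and 3 and 0, 2 and 1 in mutants 1, 2 and 3. For Il1b and Ccl7, also untested, the groups overlapped. Ccl5 was at 2.36, with 9.60 CPM in mutant sample 1 and 0 counts in the other mutants, and Tlr4 at 0.84. Il1b had at most 1.11 CPM. Among the complement partners of C1q, 0 of 11 were called (median 0.10). C1s1 was at 0.74 and Cfb at 1.67, with Cd93 at -0.51 and C4b at -0.88. Of the MHC class II genes, 0 of 7 were called (median 0.35), with H2-Aa at 0.41, H2-Ab1 at 0.36 and Ciita at -0.84.

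Markers of other blood cells and of neighbouring tissue were measured beside these genes, and counts of calls are from edgeR unless another tool is named. Monocyte markers summed to 69.3, 62.4 and 72.2 CPM in controls 1, 2 and 3 and to 176, 169 and 78.1 CPM in mutants 1, 2 and 3, with 0 of 4 called. Plac8 had a log2 fold change of 1.70 (adjusted p = 0.0795, edgeR) and was called by DESeq2 and limma-voom, while Ace was at -1.11 and Ccr2 at -0.51. Osteoclast markers, of a cell of the same lineage, had 0 of 8 called (median 0.88), with Ctsk at 1.02 and Nfatc1 at -0.13. Of 3 dendritic cell markers tested, Itgax had 21, 20 and 24 counts in the controls and 0 counts in every mutant sample. By the limit for counting error only, its mean was at least 5.40-fold lower. Itgax too passed the filter through the controls alone. Its adjusted p (0.0464, edgeR) was under 0.05 in 2 of 12 alternatives and not without the filter. Neutrophil markers had 0 of 8 called with edgeR and 1 with limma-voom, with S100a8 at 2.25 and Ngp at -1.63. Markers of T and NK cells (0 of 3 called), B cells (0 of 2) and mast cells (0 of 2) were at or near 0 in several libraries. Cd4, a co-receptor of helper T cells, averaged 3.04 ± 2.15 CPM over controls and 2.04 ± 2.07 CPM over mutants (SD, n = 3 each).

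Erythroid markers summed to 823, 834 and 380 CPM in controls 1, 2 and 3 and to 1289, 926 and 2560 CPM in mutants 1, 2 and 3, and their part in the macrophage values was not tested. Of 6 tested, Hba-a1 fell and 0 rose (median 0.61), and its near copy Hba-a2 had a log2 fold change of 1.36. How reads shared by the pair were divided is not given in the sources used here, and its part in these values was not tested. Endothelial markers had 0 of 8 called (median -0.33), with Pecam1 at -0.70 and Cdh5 at -1.02 (adjusted p = 0.254 and 0.263, edgeR). Cldn5 was at 0.23 and Emcn at 0.05. For Pecam1 and Cdh5 all mutants were lower than all controls, as they were for 16.3% of all genes tested. Schwann cell markers (0 of 6 called, median 0.67), skeletal muscle markers (0 of 8, median 1.49), odontoblast and mesenchyme markers (0 of 8, median -0.41) and epithelial markers (0 of 8, median -0.63) gave no calls with edgeR. DESeq2 called 1 of the odontoblast and mesenchyme markers and 2 of the epithelial markers. The sign of the median was kept under every alternative for 5 of these 19 lists (other macrophage genes, ligands and partners, osteoclast, endothelial and epithelial markers) and turned under at least 1 alternative for the other 14. Without the libraries richest in muscle transcripts, control sample 2 and mutant sample 1, 0 of the 10 macrophage genes were called and their median log2 fold change was 0.38.

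**Figure D5:**
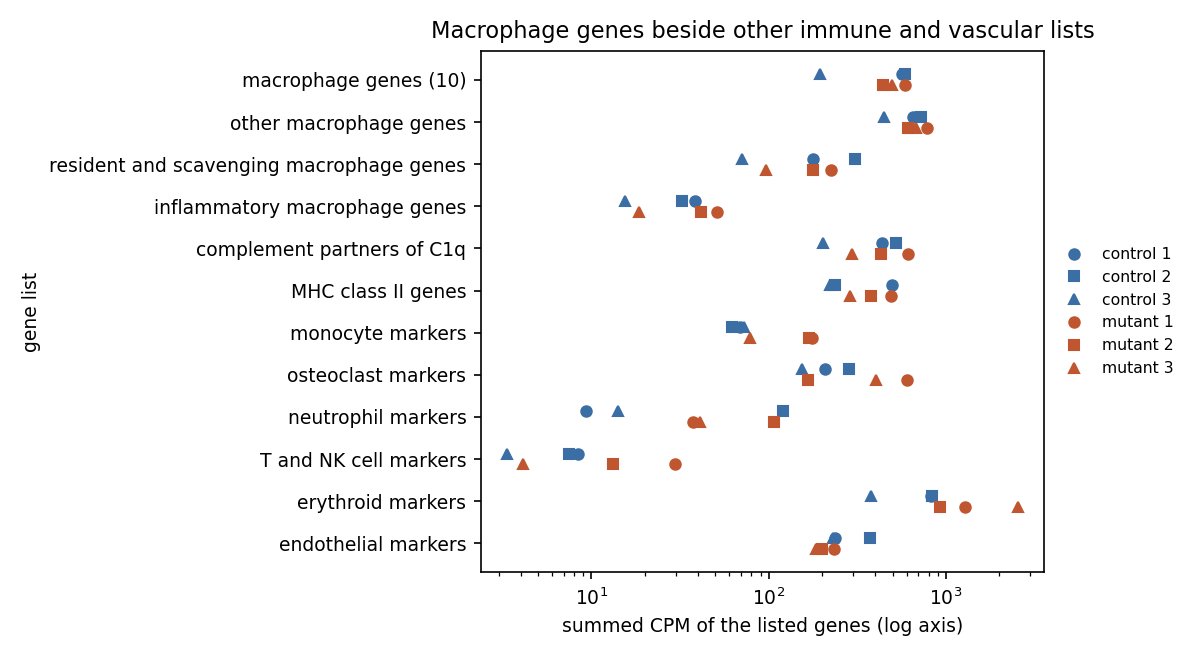
Summed CPM (log axis) of the 10 macrophage genes and of 11 other lists in each control (blue) and mutant (orange) sample. For the 10 macrophage genes control sample 3 stands apart at 196 CPM, with the other samples between 442 and 588 CPM.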

How the data were processed

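Proximal incisors of 3 control and 3 mutant samples were profiled by RNA sequencing. The authors trimmed single reads, aligned them with Partek Flow against mm10, which is GRCm38; the table they deposited has samples in rows and holds estimated counts that were not normalized. The submitters' processing notes also name TopHat2 2.0.8. The rule of their filter on features and the counting model are not given in the sources used here. Their own table of the comparison (p-values, ratios, group means) was not used.

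Counts were rounded to whole numbers. The fit used edgeR 4.0.16 in R 4.3.3 with upper-quartile scaling, as the study scaled its data, filterByExpr (minimum count 10, total 15), genotype as the only term, and the quasi-likelihood F test (two-sided), with p-values adjusted by Benjamini-Hochberg over 15826 genes. A standard error is the log2 fold change divided by the root of F, and 95% intervals come from it and the total degrees of freedom, so both are approximate. On simulated counts the script was checked for recovery of known changes. Lengths, GC content and positions came from GENCODE M21 (18637 symbols matched directly, 216 through a synonym, 207 not at all) and promoters from RefSeq.

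The members and lists were chosen with earlier results of these data known. Genes named were all members, from each list up to 2 higher and 2 lower with the smallest p and any called, the ligands, Lyz1, Fgfr1, and the 5 nearest profiles; 1 gene that this rule names is not reported here. Alternatives were TMM, total counts, DESeq2 1.42.0, limma-voom (limma 3.58.1), no filter, a mean of at least 50 counts, the replicate number as a block, each sample left out, control counts thinned to 9484797, a loess correction for length and GC content fitted on protein-coding genes, and protein-coding genes only. Leaving out the libraries richest in muscle transcripts was chosen after seeing the data.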

Additional observations from a re-analysis of the deposited data

How the results depend on the processing

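No member had an adjusted p under 0.05 under the main settings or any of the 17 alternatives. At an unadjusted p under 0.05 the number was 0, and from 0 to 1 with 1 sample left out (Mrc1 without control sample 2, Csf1r without control sample 3). The median log2 fold change of the members was 0.33, and across the fits without 1 sample it ran from -0.03 (without control sample 3) to 0.49 (without control sample 1). It was 0.05 when libraries were scaled by total counts alone, where the median of all genes was -0.30, and -0.05 after the length and GC correction. Csf1r stayed below 0 and C1qa, Mrc1 and Ptprc above 0 in all 17. In 20 of 170 fits of a member the sign changed, in none of them at an adjusted p under 0.05. After the length and GC correction Cd68 was at -0.25, C1qb at -0.090, Lyz2 at -0.45 and Cx3cr1 at 0.30. With limma-voom Adgre1 was at 0.19 and Cx3cr1 at 0.15. Without the 2 libraries richest in muscle transcripts Adgre1 was at 0.50 and Cx3cr1 at 0.34. With the replicate number as a block C1qc was at 0.057. With 1 sample left out, C1qb ran from -0.010 to 0.66, C1qc from -0.44 to 0.28, Lyz2 from -0.046 to 0.56, Adgre1 from -0.49 to 0.22 and Cx3cr1 from -0.42 to 0.26.

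Of the genes in the other lists, 4 had an adjusted p under 0.05 (Gpr34, Il34, Itgax and Hba-a1; Il34 and Itgax passed the filter through the control samples alone). The number was 9 with DESeq2, 7 with limma-voom, 1 with control counts thinned, 1 among genes averaging 50 counts or more, and 0 after the length and GC correction, without a filter, among protein-coding genes only and without the 2 libraries richest in muscle transcripts. It ran from 0 to 1 with 1 sample left out. With the replicate number as a block it was 2. Deviations from the group means correlated by 0.0472, 0.00937 and 0.0548 in the 3 equally numbered pairs, all under the 0.1 that would have treated them as paired. The block gave 508 calls over all genes against 1074. The lower depth of the mutant libraries limits the low genes most: Ptprc had 37, 20 and 94 counts in mutant samples 1, 2 and 3. The causes of these changes were not tested.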
